A study of Mus musculus with 18 samples.

Results

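The lateral septum (LS) of 6 lactating maternal mice was compared with that of 6 virgin mice, gene by gene, in a series of 18 arrays with 1 array per animal. All animals were outbred hsd:ICR females of about 70 days. Maternal mice had mated, delivered and nursed litters set to 11 pups, and were dissected on postpartum Day 7 with their pups. Virgin mice were of the same age, had been co-housed with other females in place of a male, were later housed singly like the dams, and were used only if diestrous. A further 6 mice, whose pups had been taken away on Day 2, entered the estimate of the spread between animals and the mean signal levels over 18 arrays, but no difference. Maternal and virgin mice therefore differed in mating, pregnancy, parturition, lactation, the presence of pups and endocrine state at once, and these cannot be told apart here. The LS was punched from frozen sections of each brain, and total RNA of each animal was hybridized to a Mouse Gene 1.0 ST array. A target is a set of probes read as 1 value, and the values are log2 signals, so that a difference of 1 is a doubling. Of 35557 targets, 21789 belong to exactly 1 gene, and these stand for 19938 genes, all of which were compared.

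The LS is a limbic region made up mainly of GABAergic neurons. It receives input from the hippocampus and projects to the hypothalamus, and it is known for its part in anxiety, aggression and social and maternal behavior. It lies between the lateral ventricles and beside the striatum, and the ventricular wall next to it holds ependymal cells and, further laterally, neural stem cells that go on dividing in the adult. During lactation the brain is exposed to prolactin and to sensory input from pups. Of 20 genes listed for LS neurons 19 were measured, and their median level was 9.18 against 8.04 over all targets of 1 gene. Zic1 (12.02), Trpc4 (11.19) and Sst (12.41) were bright. Genes of striatal medium spiny neurons were bright as well, with a median level of 9.74.

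Lower expression in maternal LS was more frequent than higher expression. With an adjusted p under 0.25 in limma, the threshold of the study, 325 of 21789 targets were called, which is 1.49%. Of these, 98 were higher in maternal mice (0.45% of all targets) and 227 were lower (1.04%), from 97 and 203 genes, and 0 genes were called in both directions. Over all targets the share with a lower maternal mean was 50.2%. Changes were small. The called targets differed by 0.21 on the log2 scale in the median in either direction, and 1 higher and 6 lower targets differed by more than 0.5. At an adjusted p under 0.1 in limma 0 targets passed, whereas 2170 had an unadjusted p under 0.05 (840 higher and 1330 lower). Among the called genes 190 are not named in the main tables, gene clusters or text of the study (71 higher and 119 lower). Most genes described below come from these. Genes found only in the study's supplementary list of all targets count as not named. The study itself reported more called targets at this threshold, counted over all targets.

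**Figure D1:**
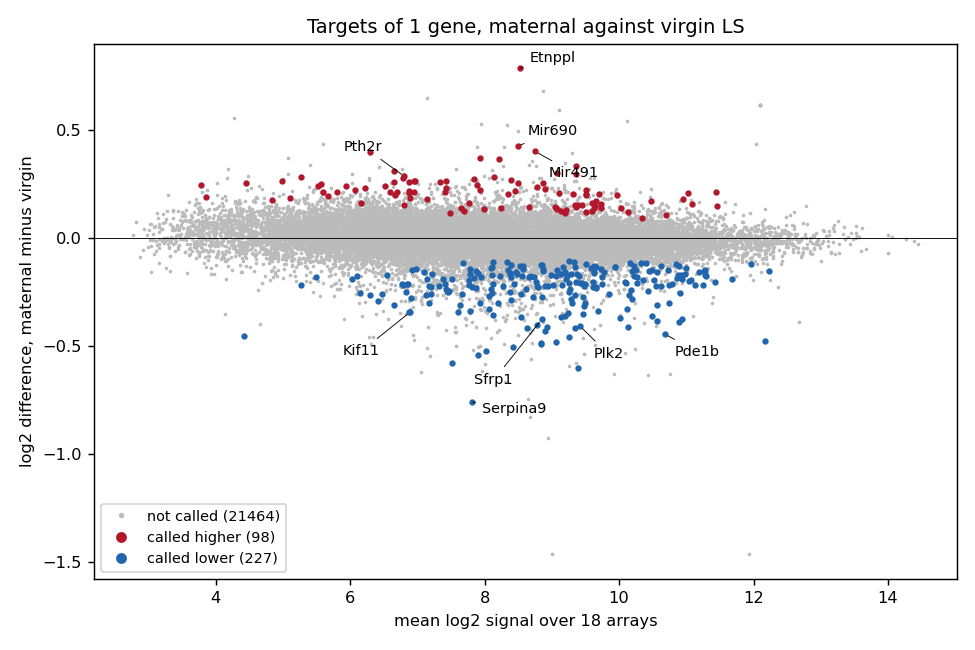
Each point is a target of 1 gene, with its mean log2 signal over 18 arrays on the horizontal axis and the log2 difference of maternal minus virgin LS on the vertical axis. The 98 targets called higher (red) spread over the whole range of signal, while the 227 called lower (blue) lie mostly at a signal above 8.

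In 97 of the 98 targets called higher and 226 of the 227 called lower, each of the 6 maternal arrays was on the side of the call relative to the virgin mean. A small p with 6 arrays a group makes this likely, and over all targets it was so in 17.9%. The groups did not overlap at all in 31 of the former and 99 of the latter. Over all targets, called or not, every maternal array lay above every virgin array in 51 (0.234%) and below in 163 (0.748%). The number of calls depended on single arrays. Leaving out maternal replicate 5, 4, 6 or 2 gave 4, 68, 89 or 135 called targets, and leaving out virgin replicate 2, 3 or 4 gave 38, 107 or 160. It grew to 547 when maternal replicate 1 was left out and to 861 when virgin replicate 6 was. None of the 325 called targets changed sign in any of these fits. The 79 called genes checked one by one for the text all lost their call without maternal replicate 5.

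Genes of cell division and DNA replication were lower in maternal LS. Of 44 measured genes in a list of the cell cycle, 39 had a lower maternal mean, 9 fell and 0 rose, and the median difference was -0.12. Over all genes, each taken by its brightest target, 0.451% were called higher and 0.973% lower. Counts of called list members given below are to be read beside these shares. Ect2, which acts in cytokinesis, ran from 6.66 to 6.92 in maternal mice (median 6.76) and from 6.95 to 7.13 in virgin mice (median 7.05). The 2 groups did not overlap, and Ect2 fell by 0.28 on the log2 scale (adjusted p = 0.114 in limma, SE 0.06). Kif11, a motor protein of the mitotic spindle, ran from 6.53 to 6.95 in maternal mice (median 6.69) and from 6.86 to 7.24 in virgin mice (median 7.04), so that the ranges overlapped slightly. It fell by 0.34 (adjusted p = 0.147 in limma, SE 0.08). Mcm5, a subunit of the replicative helicase, had medians of 7.71 and 7.88 and fell by 0.14 (adjusted p = 0.157 in limma, SE 0.04). These transcripts were dim in this tissue, with a median level of 7.14 for the list. The count of 9 became 1, 2 or 4 when maternal replicate 5, 4 or 6 was left out, 2, 4 or 5 when virgin replicate 2, 3 or 4 was, and 14 when virgin replicate 6 was. In such bulk samples, fewer cells of a type and less RNA per cell cannot be told apart.

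Several more genes with roles in copying and dividing the genome were lower, some of them outside that list. Brca2, which repairs DNA breaks by recombination, ran from 6.97 to 7.22 in maternal and from 7.23 to 7.32 in virgin mice (medians 7.11 and 7.28), without overlap. It fell by 0.16 on the log2 scale (adjusted p = 0.15 in limma, SE 0.04). Rfc5, part of the clamp loader of DNA polymerases, lay between 8.51 and 8.69 in maternal and between 8.69 and 8.89 in virgin mice (medians 8.64 and 8.79), with 1 value in common at the edge. It fell by 0.17 (adjusted p = 0.126 in limma, SE 0.04). Arhgap19, a GTPase-activating protein that acts in mitosis, fell by 0.22 (adjusted p = 0.114 in limma, SE 0.05) from a virgin median of 6.86 to a maternal median of 6.64. Chosen after their values were seen, Rrm2, the small subunit of ribonucleotide reductase, fell by 0.22 with no overlap between groups, and Dtl, Cenpe, Knl1, Rpa3, Cdk4 and Cdk6 fell by 0.16 to 0.30 with overlapping ranges. Of these, Cdk4 lay on the threshold (adjusted p = 0.25 in limma when rounded). Rpa3 has a second target, which differed by -0.42 but did not pass.

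**Figure D2:**
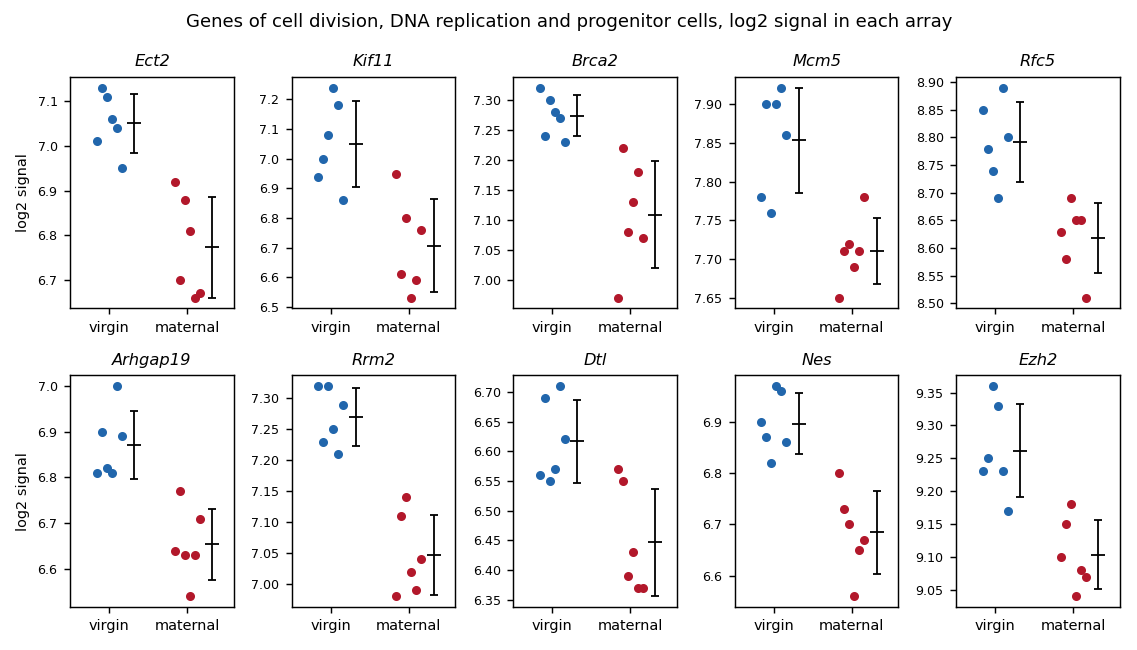
Log2 signal of 10 genes in each of the 6 virgin (blue) and 6 maternal (red) arrays, with the mean and SD of each group in black. Each panel has its own axis, and in Ect2, Brca2, Arhgap19, Rrm2 and Nes every maternal array is below every virgin array.

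Genes of neural stem cells were lower as well. Of 16 measured, 14 had a lower maternal mean, 4 fell and 0 rose, with a median difference of -0.13. Nes, the gene of the intermediate filament nestin that marks neural progenitors, ran from 6.56 to 6.80 in maternal mice (median 6.69) and from 6.82 to 6.97 in virgin mice (median 6.89). It fell by 0.21 on the log2 scale (adjusted p = 0.139 in limma, SE 0.05), and its groups did not overlap. All its values lay under 7, the level below which 95% of olfactory receptor targets are found, so that Nes was not above the signal without expression. The other 3 called members were Nr2e1, Egfr and Fabp7, which the study had chosen to print from these same arrays, so that their direction is not independent evidence. Sox2 (-0.03, adjusted p = 0.9 in limma), Slc1a3 (0.01, adjusted p = 0.962 in limma) and Prom1 (0.01, adjusted p = 0.979 in limma) did not pass. Members of this list, called or not, can also be expressed by other cells such as astrocytes or ependymal cells. Without maternal replicate 5 the list held 0 called genes. Averaged over the 16 genes, the arrays lay between 8.98 and 9.12 in maternal mice and between 9.11 and 9.25 in virgin mice.

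Ezh2, the methyltransferase of the Polycomb complex that silences genes in progenitors, fell by 0.16 on the log2 scale (adjusted p = 0.227 in limma, SE 0.05), with medians of 9.09 and 9.24. Replication-dependent histones, which are made in S phase, had 28 of 31 measured genes with a lower maternal mean, 4 lower and 0 higher by call, and a median difference of -0.10. Histone transcripts share much sequence, and their targets may read more than 1 gene. With a mean of at least 7 required the 4 calls became 8, and in a fit of the 12 maternal and virgin arrays alone 2. They became 1, 1 or 2 when maternal replicate 4, 5 or 6 was left out, 1 or 2 when virgin replicate 2 or 3 was, and 7 when maternal replicate 1 or virgin replicate 6 was. Markers of migrating neuroblasts, the offspring of these stem cells, had 12 of 18 lower and 1 called, with a median of -0.06.

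Genes that rose had varied roles. The largest rise belonged to Etnppl (target 10496077), the phospho-lyase that breaks down phosphoethanolamine and is expressed in astrocytes. Its log2 signal ran from 8.74 to 9.87 in maternal mice (median 8.94) and from 8.0 to 8.88 in virgin mice (median 8.27). Only the highest virgin array reached into the maternal range, and Etnppl rose by 0.79 on the log2 scale (adjusted p = 0.213 in limma, SE 0.22). The 18 astrocyte genes of a separate list divided evenly, with 9 above and 9 below the virgin mean, 0 called in limma (1 higher and 0 lower at an unadjusted p under 0.05) and a median of -0.02. Pth2r, the receptor of the neuropeptide TIP39, which is known in the maternal brain of rodents, ran from 6.84 to 7.13 in maternal mice (median 6.97) and from 6.57 to 6.79 in virgin mice (median 6.69). All maternal arrays were above all virgin arrays, and Pth2r rose by 0.29 (adjusted p = 0.176 in limma, SE 0.07). Both means lay under 7, where dim targets as a whole leaned upward in the deposited values.

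Cd36, a membrane transporter of long-chain fatty acids, ran from 4.98 to 5.31 in maternal mice (median 5.16) and from 4.73 to 5.06 in virgin mice (median 4.88). It rose by 0.26 on the log2 scale (adjusted p = 0.176 in limma, SE 0.07), close to the median level of olfactory receptor targets (5.4), which brain tissue should hardly express. Of 29 genes of fatty acid handling 1, Cd36, was called higher, and Lpl, Fabp5 and Fabp7 were called lower. Vgf, the precursor of several neuropeptides, rose by 0.15 (adjusted p = 0.234 in limma, SE 0.04) from a virgin median of 9.41 to a maternal median of 9.52. Of 32 neuropeptide genes measured, 2 rose, Vgf and Nmu, and 0 fell, beside 0.451% called higher and 0.973% lower over all genes. At an unadjusted p under 0.05 in limma 3 of the 32 were higher and 6 lower. Both means of Nmu (6.54 in maternal and 6.14 in virgin mice) lay under 7, the level below which 95% of olfactory receptor targets are found. Penk, which encodes enkephalins, lay lower in every maternal array than in every virgin array but did not pass (-0.39, adjusted p = 0.323 in limma).

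Some bright genes rose by little but evenly. Usp54, a relative of the ubiquitin-specific peptidases, ran from 10.53 to 10.61 in maternal mice (median 10.57) and from 10.29 to 10.51 in virgin mice (median 10.40). Its groups did not overlap, and it rose by 0.18 on the log2 scale (adjusted p = 0.139 in limma, SE 0.04), while its other target rose by 0.15. Of 55 ubiquitin-specific peptidase genes, each taken by its brightest target, no other was called. Usp31, which the study names, was called higher through its dimmer target (0.16, adjusted p = 0.203 in limma). Camta1, a calmodulin-binding transcription activator, had medians of 11.48 and 11.34 and rose by 0.15 (adjusted p = 0.179 in limma, SE 0.04). Wdfy3, an adaptor of selective autophagy, had medians of 11.14 and 11.00 and rose by 0.16 (adjusted p = 0.179 in limma, SE 0.04). Rnasek, a small membrane protein of the proton pump, rose by 0.21 (adjusted p = 0.185 in limma, SE 0.05) from 10.89 to 11.15 in the median. Flt1, a receptor of vascular endothelial growth factor, had medians of 9.46 and 9.31.

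Further genes that rose have roles that are less clear in the septum. The long noncoding RNA Lncenc1 ran from 8.13 to 8.66 in maternal mice (median 8.38) and from 7.76 to 8.32 in virgin mice (median 8.01), and rose by 0.37 on the log2 scale (adjusted p = 0.191 in limma, SE 0.10). Mug1, a protease inhibitor of the alpha-macroglobulin family, rose by 0.31 (adjusted p = 0.234 in limma, SE 0.09), Lyz1, a lysozyme, by 0.26, and Eml5, a microtubule-associated protein, by 0.27. Dgka, a diacylglycerol kinase, rose by 0.26 (adjusted p = 0.244 in limma, SE 0.08). Cldn34b2, a claudin on the X chromosome with a median of only 4.57 in maternal and 4.32 in virgin mice, had the smallest p among the higher genes that the study does not name (0.26, SE 0.06, adjusted p = 0.124 in limma). Gm5820 ran from 7.5 to 7.68 in maternal mice (median 7.54) and from 7.11 to 7.44 in virgin mice (median 7.31), without overlap, and rose by 0.26 (adjusted p = 0.139 in limma, SE 0.06). The long noncoding RNAs 4930555F03Rik and Gm10384 rose by 0.19 and 0.23, and Dmp1, a matrix protein of bone and dentin, by 0.21. Their maternal medians were only 6.94, 6.34 and 6.83. Kir3dl2 and Lilr4b, receptors of immune cells, rose by 0.28 each at maternal medians of 6.95 and 5.35. Of all long noncoding RNA targets 9 of 713 were called higher (1.26%) and 3 lower (0.421%), beside 0.45% and 1.04% of all targets of 1 gene.

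**Figure D3:**
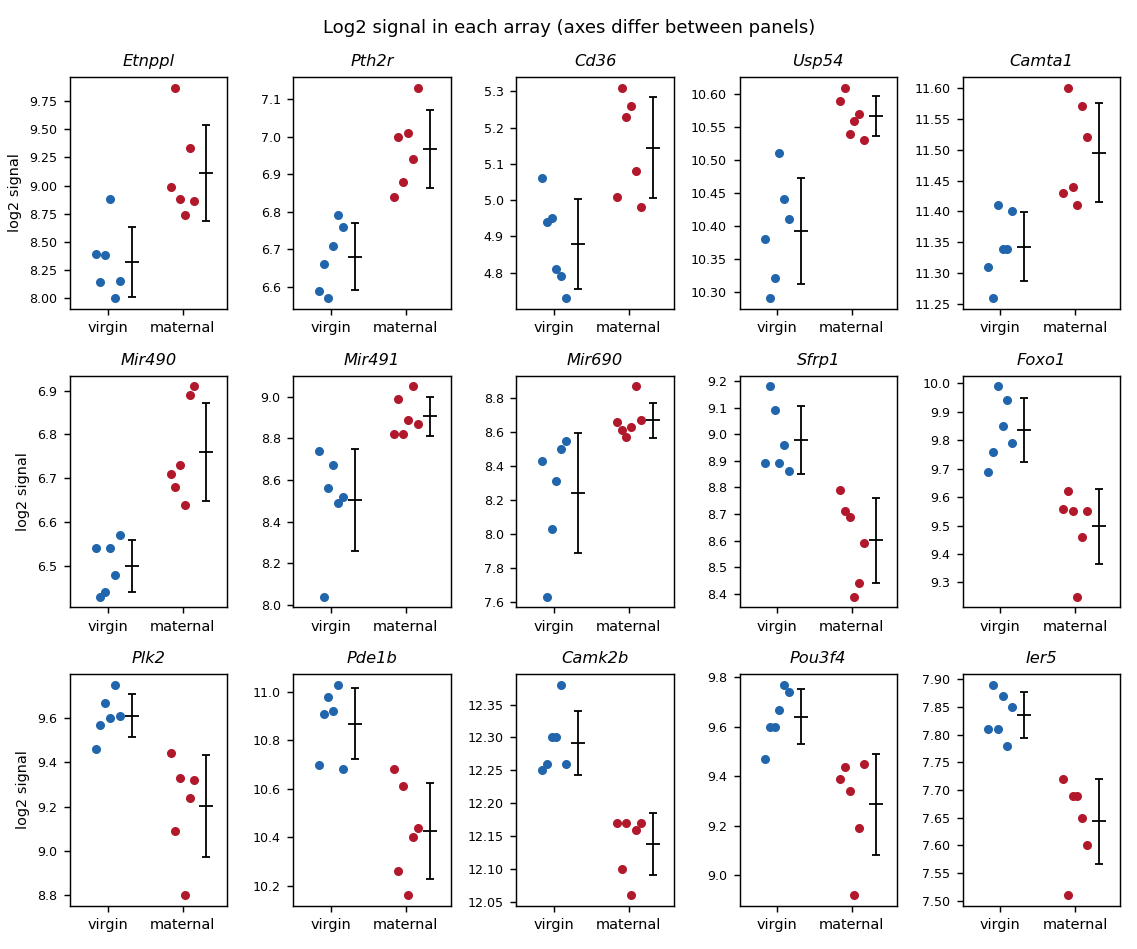
Log2 signal of 15 genes in each of the 6 virgin (blue) and 6 maternal (red) arrays, with the mean and SD of each group in black and a separate axis in each panel. The first 8 panels show genes that rose and the last 7 genes that fell, and the groups are apart in Pth2r, Usp54, Mir490, Mir491, Mir690, Sfrp1, Foxo1, Plk2, Camk2b, Pou3f4 and Ier5.

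MicroRNA genes were called only in the higher direction with the deposited values. Of 300 genes measured, 8 rose (2.67%) and 0 fell, and 221 had a higher maternal mean, with a median difference of 0.06. Over all genes, each by its brightest target, 0.451% were called higher and 0.973% were called lower. A microRNA gene is transcribed as a precursor whose mature strand then pairs with messenger RNAs through its seed, bases 2 to 8. The arrays read RNA from the locus of each gene, and mature microRNA was not measured. RefSeq (GRCm38.p6) gave a mature sequence for 6 of the called genes, and 6 strands are shown for their seeds, written 5′ to 3′ with the seed in capitals.
mmu-miR-181a-5p: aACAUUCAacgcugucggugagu
mmu-miR-490-3p: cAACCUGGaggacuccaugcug
mmu-miR-491-5p: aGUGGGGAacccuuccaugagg
mmu-miR-532-3p: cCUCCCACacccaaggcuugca
mmu-miR-680: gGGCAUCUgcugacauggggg
mmu-miR-690: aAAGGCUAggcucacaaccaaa
The 9 mature sequences found for these genes had 9 different seeds, so these 6 genes were not copies of 1 seed family. For the called genes Mir151 and Mir378a no sequence was compared.

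Mir690 had the largest difference of these genes. Its log2 signal ran from 8.57 to 8.87 in maternal mice (median 8.65) and from 7.63 to 8.55 in virgin mice (median 8.37), without overlap, and it rose by 0.43 on the log2 scale (adjusted p = 0.244 in limma, SE 0.13). The spread came from the virgin arrays, which covered a range far wider than the maternal ones. Mir491 ran from 8.82 to 9.05 in maternal mice (median 8.88) and from 8.04 to 8.74 in virgin mice (median 8.54), again without overlap, and rose by 0.40 (adjusted p = 0.205 in limma, SE 0.11). Mir490 ran from 6.64 to 6.91 (median 6.72) against 6.43 to 6.57 (median 6.51) and rose by 0.26 (adjusted p = 0.191 in limma, SE 0.07). Mir378a, with medians of 7.21 and 7.07, had groups apart as well. The remaining called genes were Mir680-2, Mir151, Mir532, Mir378a and Mir181a-2, with rises of 0.15 to 0.30 and maternal medians between 6.65 and 9.23. The count of 8 became 4, 1, 0 or 1 when maternal replicate 2, 4, 5 or 6 was left out and 0, 1 or 4 when virgin replicate 2, 3 or 4 was. Leaving out virgin replicate 6 gave 16 higher and 2 lower, quantile normalization 6 higher and 1 lower, and a fit of the 12 maternal and virgin arrays alone 3 higher. Dim targets as a whole leaned upward in the deposited values, as described further below for signal level.

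Several transcription factors and chromatin regulators fell. Of 175 genes with homeobox, Sox, forkhead or Zic names, 4 fell (2.29%) and 0 rose, and the median was -0.01. Over all genes, each taken by its brightest target, 0.973% were called lower. Of 370 zinc finger genes 3 fell (0.811%) and 0 rose, near that share. Of 40 genes of chromatin remodelling complexes 2 fell and 0 rose, with a median of -0.02. Foxo1, a forkhead factor that insulin and AKT signaling keep out of the nucleus, ran from 9.25 to 9.62 in maternal mice (median 9.55) and from 9.69 to 9.99 in virgin mice (median 9.82). Its groups did not overlap, and it fell by 0.34 on the log2 scale (adjusted p = 0.179 in limma, SE 0.09). Foxo6, a member of the same family found in the brain, had medians of 7.61 and 7.86 and fell by 0.22 (adjusted p = 0.155 in limma, SE 0.05). Pou3f4, a POU domain factor of the developing forebrain and inner ear, ran from 8.92 to 9.45 (median 9.37) against 9.47 to 9.77 (median 9.64) and fell by 0.35 (adjusted p = 0.198 in limma, SE 0.10). Foxp1, a forkhead factor abundant in striatal projection neurons, had medians of 9.87 and 10.15 with no overlap and fell by 0.37 (adjusted p = 0.238 in limma, SE 0.11).

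Ier5, an immediate early gene that takes part in the heat shock and growth response, was lower as well. It ran from 7.51 to 7.72 in maternal mice (median 7.67) and from 7.78 to 7.89 in virgin mice (median 7.83), without overlap, and fell by 0.19 on the log2 scale (adjusted p = 0.111 in limma, SE 0.04). Of 21 other immediate early genes, 15 had a higher maternal mean and 0 were called in limma (1 higher and 1 lower at an unadjusted p under 0.05). Med16, a subunit of the Mediator complex that links activators to RNA polymerase, ran from 9.17 to 9.38 (median 9.28) against 9.39 to 9.49 (median 9.45) and fell by 0.16 (adjusted p = 0.114 in limma, SE 0.04). Mllt1, a reader of acetylated histones in the elongation machinery, fell by 0.21 (adjusted p = 0.149 in limma, SE 0.05) from 9.51 to 9.32 in the median. Zbtb20, a zinc finger repressor of hippocampal and glial development that was chosen after its values were seen, fell by 0.26 (adjusted p = 0.185 in limma, SE 0.07) with groups apart, and its other target differed by -0.15. The clock factors Nr1d1 and Dbp had maternal medians of 11.35 and 9.98 and virgin medians of 11.51 and 10.26. They were the 2 of 18 clock genes called (11.1%), both lower, beside 0.973% called lower over all genes.

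Some secreted factors and receptors fell, while others named above rose. Sfrp1, a secreted antagonist of Wnt ligands, ran from 8.39 to 8.79 in maternal mice (median 8.64) and from 8.86 to 9.18 in virgin mice (median 8.93). Its groups were apart, and it fell by 0.38 on the log2 scale (adjusted p = 0.153 in limma, SE 0.09). Kit, the receptor of stem cell factor, ran from 8.16 to 8.31 (median 8.29) against 8.35 to 8.53 (median 8.47) and fell by 0.18 (adjusted p = 0.185 in limma, SE 0.05). Among 37 receptors of growth factors and cytokines 1 rose and 3 fell, with a median of -0.01. Chosen after their values were seen, Tgfa, a ligand of the EGF receptor, Gdf10, a ligand of the TGF-beta superfamily, and Smad3, which carries TGF-beta signals to the nucleus, fell by 0.25, 0.18 and 0.20. The noradrenergic autoreceptor gene Adra2c, likewise chosen afterwards, fell by 0.22 (adjusted p = 0.228 in limma, SE 0.07).

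Some bright genes of calcium, cyclic nucleotide and phosphorylation signaling fell by small amounts. Camk2b, the beta subunit of calcium/calmodulin-dependent kinase II, ran from 12.06 to 12.17 in maternal mice (median 12.17) and from 12.25 to 12.38 in virgin mice (median 12.28). It fell by 0.15 on the log2 scale (adjusted p = 0.147 in limma, SE 0.04) with groups apart. Of 43 genes of calmodulin and calcium signaling 27 had a lower and 16 a higher maternal mean, and the median was -0.02. In 7 of them all maternal arrays lay below all virgin arrays, beside 0.748% of all targets of 1 gene. By call 5 fell (11.6%) and 0 rose, beside 0.973% called lower over all genes. The other called members were Orai2, Hpcal4, Itpka and Camkv, a kinase-like protein of synapses that fell by 0.17. That count became 3, 1, 0 or 2 when maternal replicate 2, 4, 5 or 6 was left out, 0 when virgin replicate 2 was, 3 when virgin replicate 3, 4 or 5 was, and 10 when virgin replicate 6 was.

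Pde1b, a calmodulin-dependent phosphodiesterase that degrades cyclic nucleotides, ran from 10.16 to 10.68 in maternal mice (median 10.42) and from 10.68 to 11.03 in virgin mice (median 10.92). The groups met at a single value, and Pde1b fell by 0.44 on the log2 scale (adjusted p = 0.19 in limma, SE 0.12). Pde7b, which degrades cyclic AMP, was lower in every maternal array than in every virgin array but did not pass (-0.52, SE 0.16, adjusted p = 0.265 in limma). Of 23 phosphodiesterase genes 14 had a lower maternal mean, with a median of -0.02, and Pde1b was the one called. Plk2, a kinase that weakens synapses after strong activity, ran from 8.80 to 9.44 (median 9.28) against 9.46 to 9.75 (median 9.61) and fell by 0.41 (adjusted p = 0.198 in limma, SE 0.11). Ppp1ca, the alpha catalytic subunit of protein phosphatase 1, had medians of 10.52 and 10.76 and fell by 0.22 (adjusted p = 0.19 in limma, SE 0.06). Ppp1r14b, an inhibitor of the same phosphatase, fell in both of its targets, by 0.24 and 0.18. Of 79 protein phosphatase subunits 60 had a lower maternal mean, and these 2 were the ones called. Pik3r2, a regulatory subunit of phosphoinositide 3-kinase, fell by 0.13 (adjusted p = 0.238 in limma, SE 0.04).

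Some regulators of small GTPases and of the cytoskeleton fell. Tiam2, an exchange factor that activates Rac in growing neurites, ran from 7.71 to 8.06 in maternal mice (median 7.91) and from 8.02 to 8.27 in virgin mice (median 8.21). It fell by 0.27 on the log2 scale (adjusted p = 0.128 in limma, SE 0.06). Rasgef1b, an exchange factor for Rap, fell by 0.36 (adjusted p = 0.149 in limma, SE 0.08), from a virgin median of 8.26 to a maternal median of 7.94. Fscn1, which bundles actin in filopodia and was chosen after its values were seen, fell by 0.24 (adjusted p = 0.157 in limma, SE 0.06) with groups apart. Cntnap3, a neurexin-like adhesion molecule of synapses, was lower in 6 of its 6 targets, with 3 called, and fell by 0.21 (adjusted p = 0.128 in limma, SE 0.05) in the first of them. Serpina9, a serine protease inhibitor that the study names, had the largest fall of all called targets. It ran from 6.64 to 7.75 in maternal mice (median 7.54) and from 7.87 to 8.33 in virgin mice (median 8.19), without overlap, and fell by 0.76 (adjusted p = 0.213 in limma, SE 0.21). Lamb1, a laminin chain of basement membranes, fell by 0.22, with medians of 8.13 and 8.38.

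Smaller sets give further single genes. Gabrr1, a subunit of the GABA receptors that is dim here (6.69 and 6.96 in the medians), fell by 0.21 (adjusted p = 0.229 in limma, SE 0.06). Kcne1l, an accessory subunit of potassium channels, fell by 0.24 (adjusted p = 0.19 in limma, SE 0.06). Slc35d3, a transporter-like protein that striatal neurons express, was lower and fell by 0.25 (adjusted p = 0.228 in limma, SE 0.07) with no overlap. Enpp6, which marks newly forming oligodendrocytes, fell by 0.31 (adjusted p = 0.244 in limma, SE 0.09) and no other of the 13 genes of oligodendrocyte precursors was called. Psma5, an alpha subunit of the proteasome core, fell by 0.15, and Krt15, a keratin, by 0.21. Proteasome subunits had 27 of 39 genes with a lower mean and a median of -0.03.

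Among cell type lists, those of cells that border the LS differed most. For striatal medium spiny neurons, 29 of 30 measured genes had a lower maternal mean, 7 fell and 0 rose, and the median was -0.32. The mean of the 30 genes ran from 9.27 to 9.71 in maternal arrays (median 9.57) and from 9.78 to 9.97 in virgin arrays (median 9.94), so that every maternal array lay below every virgin array. Pde1b and Foxp1 belong to this list. Drd2 and Ppp1r1b, markers of these neurons, differed by -0.27 and -0.63 without passing here (adjusted p = 0.286 and 0.282 in limma). The study reports Drd2 as downregulated in maternal LS. The 7 calls became 14 when maternal replicate 1 was left out, 2, 0, 0 or 1 when maternal replicate 2, 4, 5 or 6 was, 0 when virgin replicate 2 was, 1 when virgin replicate 3, 4 or 5 was, and 15 when virgin replicate 6 was. They became 16 in a fit of the 12 maternal and virgin arrays alone or with a mean of at least 7 required, 12 with an intensity trend and 4 with the replicate number as a block. Rarb, a retinoic acid receptor, ran from 8.40 to 9.26 in maternal mice (median 9.21) and from 9.48 to 9.78 in virgin mice (median 9.67), without overlap, and fell by 0.60 (adjusted p = 0.212 in limma, SE 0.17). Some of these genes are also expressed by LS neurons, and the study prints several of them from these arrays.

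Genes of the ventricular lining followed the same direction with wide spread. All 15 measured ependymal genes had a lower maternal mean, with a median of -0.31, and 1 of them, Pltp, passed. The mean of the 15 ran from 7.94 to 8.51 in maternal arrays and from 8.18 to 8.69 in virgin arrays, which overlap. Choroid plexus genes were lower in the mean in 12 of 12 with a median of -0.41, and 0 passed in limma (1 lower at an unadjusted p under 0.05). Their mean over genes ran from 7.71 to 8.85 in maternal arrays and from 7.68 to 9.28 in virgin arrays, and Ttr, the choroid plexus gene of transthyretin, differed by -1.47 (adjusted p = 0.698 in limma). The SD between arrays of a group was 0.44 and 0.54 for the choroid plexus mean and 0.21 and 0.19 for the ependymal mean, in maternal and virgin mice. The part of striatal, ependymal or choroid plexus tissue in the lower genes described above was not tested.

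Pltp, the phospholipid transfer protein found in ependymal and endothelial cells, ran from 10.40 to 10.89 in maternal mice (median 10.60) and from 10.78 to 11.18 in virgin mice (median 11.09). It fell by 0.39 on the log2 scale (adjusted p = 0.238 in limma, SE 0.12). Tcte1, a component of the dynein regulatory complex of motile cilia and flagella, had medians of 7.42 and 7.79 and fell by 0.34 (adjusted p = 0.185 in limma, SE 0.09). Named after their values were seen, Ak8 and Rsph14, whose proteins are found in motile cilia, fell by 0.33 and 0.30. Foxj1, the master regulator of motile cilia, differed by -0.14 without passing (adjusted p = 0.576 in limma). Ect2l fell by 0.25 in 1 target (adjusted p = 0.111 in limma, SE 0.05), but 8 of its 13 targets had a lower mean and 1 was called, so the gene as a whole is uncertain.

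Other cell types differed little. The list of LS neurons had 8 genes above and 11 below the virgin mean, 0 called in limma (2 higher and 5 lower at an unadjusted p under 0.05) and a median of -0.02, and its mean ran from 9.71 to 9.77 in maternal and from 9.78 to 9.82 in virgin arrays. These ranges do not overlap, although the distance between their medians was 0.04. Astrocytes (median -0.02), myelinating oligodendrocytes (0.05), endothelial cells (0.02), pericytes (-0.03) and meningeal fibroblasts (0.02) had medians near 0. Of 16 endothelial genes 1 was called higher and 1 lower, and 0 were called in each of the others. Of 16 microglial genes 10 were lower and 6 higher in the mean, and P2ry12 and Aif1 fell. At an unadjusted p under 0.05 in limma 2 were higher and 3 lower. C1qc was higher without passing (0.18, adjusted p = 0.296 in limma). Aif1, with means of 6.85 in maternal and 7.0 in virgin mice, lay near the signal without expression. Neurons of the medial septum had 9 of 12 genes above the virgin mean with a median of 0.04 and 0 called in limma (1 higher and 0 lower at an unadjusted p under 0.05).

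**Figure D4:**
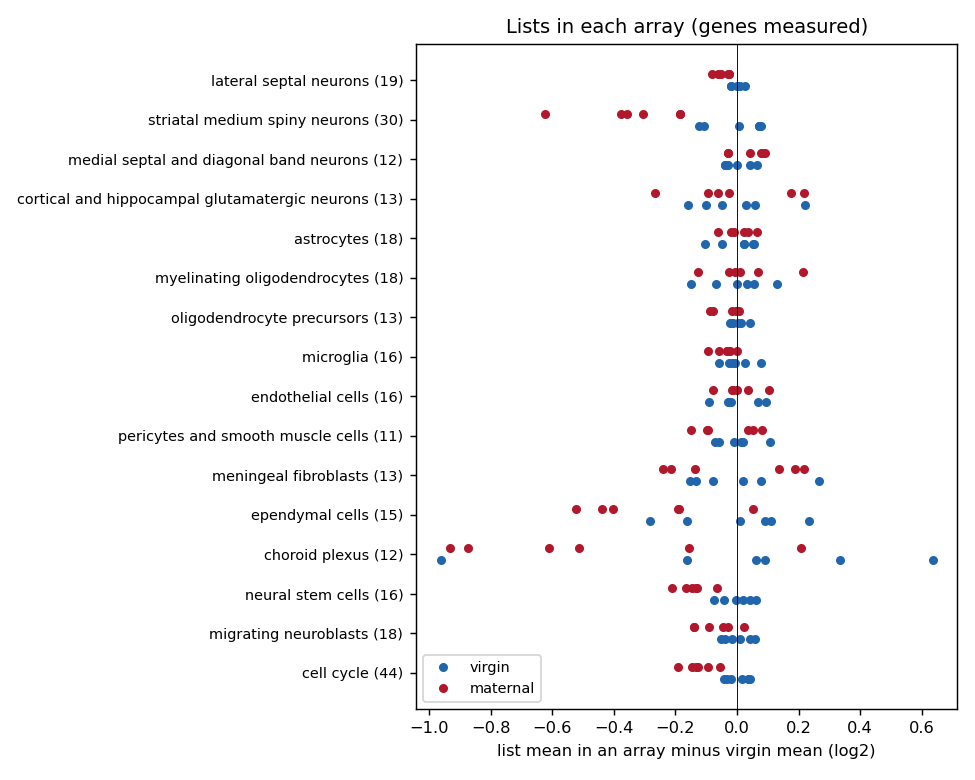
Each point is 1 array, placed at its mean log2 signal over the genes of a cell type or cell cycle list minus the mean of the 6 virgin arrays, with virgin arrays in blue and maternal arrays in red. Striatal, cell cycle and LS neuron lists separate the groups, while choroid plexus and ependymal lists spread widely within each.

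Metabolic and housekeeping lists had small negative medians and few calls. Cholesterol synthesis had 17 of 18 genes below the virgin mean, a median of -0.07 and 0 called in limma (1 higher and 2 lower at an unadjusted p under 0.05), and Sqle, the squalene epoxidase, was at -0.16 (adjusted p = 0.387 in limma). Glycolysis had 14 of 18 genes lower with a median of -0.03 and complex I of the respiratory chain 27 of 35 with -0.02. Both had 0 called in limma, with 1 glycolysis gene and 2 of complex I at an unadjusted p under 0.05. Ribosomal protein genes had 44 of 60 lower with a median of -0.03 and 2 called. Translation factors had 26 of 36 lower with a median of -0.04 and 0 called in limma (1 higher and 8 lower at an unadjusted p under 0.05). Heterotrimeric G proteins and RGS proteins, which pass on and shorten the signals of receptors, had 41 of 52 lower with a median of -0.03 and 0 called in limma (8 lower at an unadjusted p under 0.05).

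Lists with more genes above the virgin mean were fewer. Genes of the glucocorticoid response had 14 of 17 higher with a median of 0.06, and 2 rose, Fam107a and Sult1a1. Chaperones and cold-response genes had 14 of 16 higher with a median of 0.08 and 0 called higher, and Rbm3, which responds to cold, was called lower. Collagens had 36 of 44 higher with a median of 0.04 and 0 called in limma (3 higher at an unadjusted p under 0.05). In the JAK-STAT list, which prolactin signaling feeds, Cish and Socs2 rose and 12 of 21 genes were below the virgin mean. Immediate early genes had a median of 0.04.

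**Figure D5:**
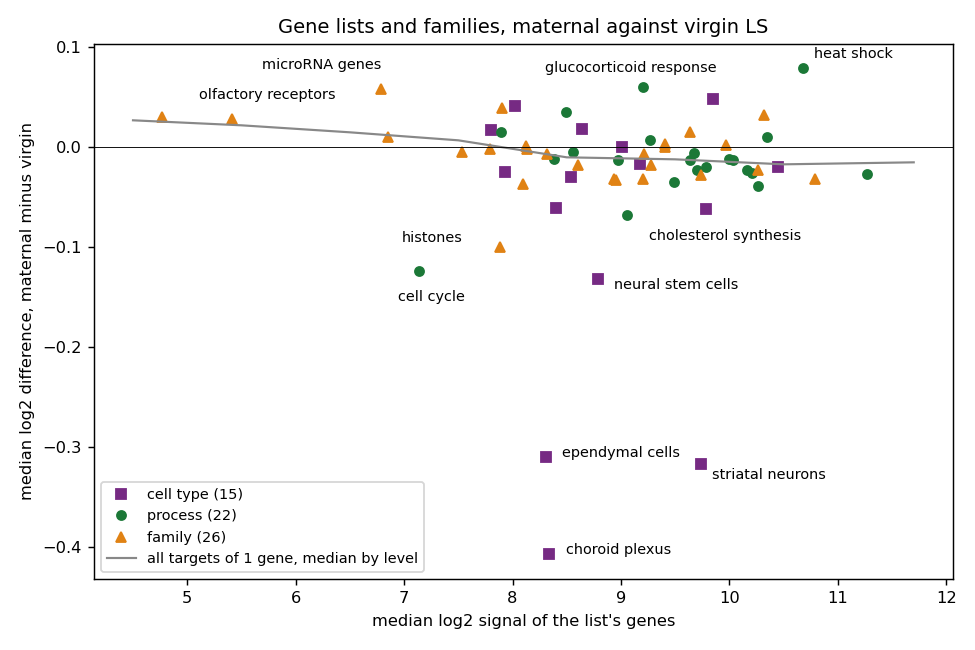
Each symbol is a gene list or family with at least 5 measured genes, with the median log2 signal of its genes on the horizontal axis and the median log2 difference of maternal minus virgin LS on the vertical axis. Choroid plexus, striatal and ependymal lists lie lowest at -0.41, -0.32 and -0.31, and the grey line gives the median of all targets of 1 gene by level.

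Signal level itself went with the direction of the small differences. Targets of olfactory receptor genes, which serve as a measure of the signal without expression, had a median level of 5.4, and 95% lay under 7. Of the targets called higher 33.7% lay under that level, of those called lower 9.25%, and of all targets 28.6%. Of the 79 called genes checked one by one, 14 had both group means under it, 7 of them higher (Cldn34b2, Pth2r, Cd36, Mir181a-2, Mir490, Mir532 and Mug1) and 7 lower (Ect2l, Arhgap19, Nes, Dtl, Knl1, Cenpe and Gabrr1), and their differences are between signals not above that level. Outside those 79, both means also lay under it for Nmu, Dmp1, Gm10384, 4930555F03Rik, Kir3dl2 and Lilr4b, all higher, and for H2ac4, which was lower. The median difference was 0.03 in targets under a level of 5 and -0.02 in those from 10 to 11. After quantile normalization it was -0.03 and -0.00 in the same targets, so that the lean of dim targets turned its direction. The medians of olfactory receptors (0.03, 3 of 1027 called, all higher) and vomeronasal receptors (0.03) likewise became -0.02 and -0.03. That of microRNA genes stayed positive at 0.03, and those of the cell cycle, striatal and stem cell lists were -0.15, -0.31 and -0.14.

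Genes read by several targets can be compared within the array. Of the called genes 39 had more than 1 target, in all 233 targets of which 64 were called. At least 1 target of each has the direction of the call by selection. The share for genes without a call was not computed. In 28 of the 39 every target had the direction of the call, and in 7 every target was called. Among the latter were Usp54 and Ppp1r14b, whose targets were named above, and Rpl7, a protein of the large ribosomal subunit, with 4 of 4 targets lower by 0.22 to 0.23. Hmgn2, a nucleosome-binding protein, had 4 of 5 targets called lower. Rpl7 and Hmgn2 have many processed copies in the genome, so that their targets may share transcripts and are not independent. Adamts3, an extracellular protease that the study names, was lower in 16 of 16 targets, with 11 called and differences between -0.54 and -0.30.

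Called genes were spread over the genome. Across chromosomes 1 to 19 and X, between 0.213% and 1.81% of genes, each taken by its brightest target, were called lower, the highest share on chromosome 10. Chromosome X had the highest share called higher, with 9 of 739 genes (1.22%). Chromosome 17 had 8 of 936 called, each of them lower (0.855%). Over all genes the shares were 0.451% higher and 0.973% lower. Of the genes taken so, 90 were called higher and 194 lower, so that many pairs would share a direction wherever they lay. In 14 pairs, called genes lay at most 3 places apart in gene order, and 10 of these pairs had the same direction. They included H2bc3, H2ac4 and H1f1 in the histone cluster of chromosome 13.

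Promoters of the lower genes were richer in CpG than those of the higher genes. RefSeq promoters of 300 bases (GRCm38.p6), from 250 before to 50 after the start site, were found for 15563 of the genes, 67 of them called higher and 158 lower. The median GC content was 60.7% in the lower, 53.3% in the higher and 57.7% in all promoters, and the median number of CpG was 20.5, 7 and 15. A GC box (GGGCGG on either strand) was found in 65.8% of the lower, 40.3% of the higher and 49.9% of all promoters. The cyclic AMP response element (TGACGTCA, the same on both strands) was found in 6.33% of the lower, 2.99% of the higher and 2.5% of all promoters, that is in 10 of 158, 2 of 67 and 389 of 15563. For an E-box (CACGTG) the shares were 7.59%, 8.96% and 8.4%, and for a STAT site (TTCNNNGAA) 8.86%, 8.96% and 7.85%. A site of E2F factors (TTTCCCGC), which drive replication genes, was found in 2 of 158 lower promoters and in 0 of 67 higher ones against 1.59% of all. These are matches of letters, and no binding was measured. The called sets also differed in signal level, with medians of 9.07 in lower, 8.24 in higher and 8.04 in all targets. Under a level of 7 lay 9.25%, 33.7% and 28.6% of them. The part of signal level in the promoter shares was not tested.

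Several of the 10 lower promoters with the cyclic AMP response element belong to genes described above. The stretches around the element are shown for 6 of them, 5′ to 3′ on the strand of the gene with the element in capitals, for Brca2 at chr5:150522575-150522634 (+), Mcm5 at chr8:75109384-75109443 (+), Dtl at chr1:191575528-191575587 (-), Cenpe at chr3:135212503-135212562 (+), Plk2 at chr13:110394956-110395015 (+) and Fscn1 at chr5:142960284-142960343 (+).
Brca2: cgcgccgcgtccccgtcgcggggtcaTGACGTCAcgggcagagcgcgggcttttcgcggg
Mcm5: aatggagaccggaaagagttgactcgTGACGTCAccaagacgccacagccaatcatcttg
Dtl: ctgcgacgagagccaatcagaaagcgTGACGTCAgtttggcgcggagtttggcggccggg
Cenpe: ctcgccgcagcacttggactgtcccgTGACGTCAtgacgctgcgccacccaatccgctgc
Plk2: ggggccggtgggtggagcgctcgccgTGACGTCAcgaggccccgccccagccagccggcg
Fscn1: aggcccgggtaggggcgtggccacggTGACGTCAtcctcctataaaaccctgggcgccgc
Counted from the start site, the first base of the element lay at position -17 in Dtl, -20 in Brca2, -34 in Cenpe, -45 in Fscn1, -62 in Plk2 and -99 in Mcm5. Of the 2 higher promoters that hold it, Flt1 is described above.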

How the data were processed

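RNA of the LS of 18 female mice (6 virgin, 6 lactating maternal, 6 pups removed) was measured with 1 array per animal, per the study's methods. The values that the authors deposited are log2 signals per target, made by PLIER with GC bin background correction in Affymetrix Power Tools 1.12.0 and rounded to 2 decimals. The methods say that the data were normalized, the method between arrays is not given in the sources used here, and the values were used as they are (array medians 7.61 to 7.70). Arrays have no read depth, so the number of arrays limits the precision. The median SD between arrays of a group was 0.08 in maternal and 0.094 in virgin mice, and each array correlated with the others of its group at a median r of 0.9946 to 0.9969.

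Genes were assigned by the platform annotation, and only targets of exactly 1 gene were described, while 1621 targets of several genes and 12147 with no gene were left out. Group means were modelled in limma 3.58.1 (R 4.3.3) over the 3 groups and 18 arrays, with prior degrees of freedom of 2.62, Benjamini-Hochberg adjustment over all 35557 targets and a threshold of 0.25. The fit was tested on simulated data. In a gene list each gene was taken by its brightest target. Named are, among called genes that the study does not name, the 15 higher and 15 lower with the smallest p and the 10 higher and 10 lower with the largest difference and genes with groups apart and a difference over 0.5. From the up to 4 members of each list with the smallest p, only some are printed, chosen after their values were seen. Further genes are marked where they were chosen later, and Zic1, Sst, Sox2, Slc1a3, Prom1, Drd2, Ppp1r1b, Ttr and Foxj1 are printed as markers of their cell types, also chosen later. The members, lists and tests were chosen with earlier results of these data known. SE is that of the limma difference. Per the methods, total RNA was prepared in sets of 1 animal from each group, and which arrays formed a set is not given in the sources used here.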

Additional observations from a re-analysis of the deposited data

Results flagged for a closer look

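Within a group of 6 arrays, the gap between the most extreme array and its neighbor was compared with the range of the group by Dixon's test, for 80 genes and 6 list means in the maternal and the virgin group. Of 172 such tests 7 passed, and chance gives about 1 in 20. In maternal mice, Mir690 was high in replicate 5 (8.87, the next at 8.67), Mir378a in replicate 2 (7.35, the next at 7.23) and Eml5 in replicate 6 (8.17, the next at 7.95), and Rasgef1b was low in replicate 4 (7.52, the next at 7.90). In virgin mice, Mir491 was low in replicate 2 (8.04, the next at 8.49) and Lamb1 in replicate 6 (8.16, the next at 8.37), and Rsph14 was high in replicate 5 (7.51, the next at 7.32). The part of RNA quality or dissection in these values was not tested.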

How the results depend on the processing

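Against 325 called targets (98 higher, 227 lower), 503 (359 lower) were called with an intensity trend, 724 (200 higher, 524 lower) with a mean of at least 7 required, and 0 (0 higher, 0 lower) at an adjusted p under 0.1 in limma. With the replicate number as a block there were 178 (44 higher, 134 lower), of which 4 instead of 7 striatal and 4 instead of 8 microRNA genes, although arrays of the same number did not deviate together (r from -0.347 to 0.095), and no source ties the numbers to the sets in which RNA was prepared. A shared preparation was therefore not modelled otherwise. With array medians subtracted 65 were higher, and with only the 12 maternal and virgin arrays 53. Leaving out 1 array gave 4 to 861 in all, 0 to 285 higher and 4 to 576 lower. The other settings' numbers of called targets stayed within 1.5 times. No called target changed sign under any setting. Of 79 called genes checked singly, 79 lost the call without maternal replicate 5, 73 without virgin replicate 2, 60 and 59 without maternal replicates 6 and 4, 34 with the block and 25 with 12 arrays. Of the list medians recomputed, 955 moved by less than the spread between arrays, 3 moved by more, and 2 changed sign by more than that spread (smaller changes of sign, as in olfactory receptors, are among the 955), potassium channel genes (-0.017 to 0.01 when 1 array was left out, the latter without maternal replicate 1) and vomeronasal receptors (-0.027 after quantile normalization). The causes were not tested.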
